A study of Mus musculus with 2 samples.

Results

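Immature non-cycling acinar cells are the cells of the fetal mouse pancreas that already make chymotrypsinogen B (Ctrb1) in bulk, hold little carboxypeptidase B (Cpb1) and carry few transcripts of dividing cells. They were chosen cell by cell from measured values, with n standing for the UMIs (unique molecular identifiers, one per captured RNA molecule) of a gene per 10000 UMIs of the cell. A cell was taken with n(Ctrb1) of 100 or more, n(Cpb1) under 10 and a sum under 2 over 9 cycling genes (Aurkb, Birc5, Ccnb1, Cdk1, Cenpf, Mki67, Top2a, Tpx2 and Ube2c). Glucagon (Gcg) and the sum of both insulins (Ins1 and Ins2) each had to stay under 200, and the sum of the collagens Col1a1 and Col3a1 under 20. The rule took 655 of 10008 cells, 398 of 3624 in Mettl3pKO and 257 of 6384 in WT.

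Both libraries came from dissected E15.5 pancreas cells dissociated with an enzyme and captured in microwells on BD Rhapsody beads. The Mettl3pKO library came from embryos in which Pdx1+ pancreatic progenitors lack Mettl3, and the WT library from wild-type embryos. There was 1 library per genotype, so that a difference between genotypes has no replicate check and no test was run. The number of embryos pooled, their litters and the driver of the deletion beyond Pdx1+ cells are not given in the sources used here. All intervals in the text are exact 95% intervals for counting error only.

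Acinar cells arise from the tips of the branching pancreatic epithelium, where the transcription factor Ptf1a, with its partner Rbpjl, switches on the genes of digestive enzymes. The enzymes are made as inactive zymogens, folded in a large endoplasmic reticulum with the help of the factor Bhlha15, and stored in granules. Enzyme genes come on in steps, so that a young acinar cell makes some enzymes well before others, and the first acinar cells still divide. Mettl3 is the catalytic subunit of the complex that writes N6-methyladenosine (m6A) on messenger RNA, a mark that readers such as Ythdf2 use to speed RNA decay.

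The libraries differed in ways other than genotype. Median depth was 15959.5 UMIs in Mettl3pKO members and 13388 in WT members, and the shallowest cell in the tables had 10719 UMIs in Mettl3pKO and 3803 in WT. Mitochondrial transcripts took a median of 10.3% of UMIs in Mettl3pKO members and 7.36% in WT members. Of the members, 58.0% in Mettl3pKO and 12.8% in WT held a UMI of a Y-linked gene without Xist (Y-linked cells below), whereas 17.1% in Mettl3pKO and 68.5% in WT held Xist without a Y-linked gene (Xist cells below), so the sex of the cells moved with genotype. The libraries shared 33 cell barcodes. Scrublet, a doublet caller, marked 1 of 3624 Mettl3pKO cells (0.0276%) and so did not work there. It marked 342 of 6384 WT cells (5.36%), 16 of them members. No cell was removed for this.

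The values that chose the cells are given as a description. The median n(Ctrb1) was 385 in Mettl3pKO members (quartiles 212 and 629) and 541 in WT members (378 and 723). The median n(Cpb1) was 0.483 in Mettl3pKO and 2.19 in WT, and 189 Mettl3pKO and 46 WT members had none. The cycling sum had a median of 0.725 in Mettl3pKO and 0.718 in WT. The thresholds cut through continuous ranges. Nearest to them, n(Ctrb1) was 103 inside and 98.0 outside in Mettl3pKO, against 108 and 99.7 in WT. The nearest n(Cpb1) was 9.87 inside and 10.1 outside in Mettl3pKO, against 9.86 and 10.2 in WT. The nearest cycling sum was 1.99 inside and 2.02 outside in Mettl3pKO, against 1.997 and 2.01 in WT. Members were 10.98% of Mettl3pKO cells (9.98 to 12.05) and 4.03% of WT cells (3.56 to 4.54), a ratio of 2.73. Among the cells rich in Ctrb1 and within the same glucagon, insulin and collagen limits, they were 24.0% in Mettl3pKO (398 of 1660) and 13.6% in WT (257 of 1896), a ratio of 1.77. Each table ends inside a row and runs broadly from deep to shallow cells, so that cells below these depths are not analysed here. With cells under the Mettl3pKO minimum of 10719 UMIs left out, the ratio over all cells was 1.87.

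The label was checked against acinar markers and against those of other cell types. Shares of cells with a UMI were taken with every cell reduced at random to 6718 UMIs, the depth of the shallowest member, and set beside cells rich in collagen (340 in Mettl3pKO and 1276 in WT, with median depths of 13661.5 and 9019.5 UMIs). Ptf1a was found in 79.9% of Mettl3pKO and 72.0% of WT members, against 6.76% and 1.49% of the collagen-rich cells. Bhlha15 was found in 78.4% of Mettl3pKO and 69.3% of WT members, against 6.18% and 2.12%. Cpa1 (carboxypeptidase A1) was found in 99.5% of Mettl3pKO and in all WT members, and in 55.6% and 52.5% of the collagen-rich cells, so that a UMI of Cpa1 alone does not mark a cell. Without thinning, Ptf1a was found in 94.2% of Mettl3pKO and 87.2% of WT members. Ptf1a and Bhlha15 were thus found in most members of both libraries and in few collagen-rich cells. After thinning, Sox9, a gene of trunk and early tips, was found in 82.2% of Mettl3pKO and 71.6% of WT members, against 20.6% and 9.09%. The duct keratin Krt19 was found in 40.2% and 32.3% of members, against 21.5% and 15.1%. Collagen-rich cells are mesenchymal, so this check does not tell acinar cells from trunk or duct cells.

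Of the defining markers of other cell types, endothelial Cdh5 had 0 UMIs in Mettl3pKO members and 1 in WT members, and leukocyte Ptprc had 5 UMIs in Mettl3pKO members and 0 in WT members. Of the 13 immune genes 3 reached 20 UMIs and 2 of them were higher in Mettl3pKO, among them Lyz2 with 103 UMIs in Mettl3pKO and 10 in WT. Levels are given as CPM, the UMIs of a gene per 1000000 UMIs of all members of the library, and the immune list summed to 121 CPM in Mettl3pKO and 111 in WT. Of the 10 endothelial genes 3 reached 20 UMIs, namely Esam, Egfl7 and Pecam1. The endothelial list summed to 21.2 CPM in Mettl3pKO and 20.8 in WT. The mesenchymal list, which holds both collagens of the rule, summed to 860 CPM in Mettl3pKO and 793 in WT. The erythroid list, whose globins are a usual part of free RNA, summed to 2087 CPM in Mettl3pKO and 2310 in WT. A median member held 4.30 erythroid UMIs per 10000 in Mettl3pKO and 5.60 in WT, and 31 Mettl3pKO and 44 WT members held 10 or more. The highest member held 1088 erythroid UMIs per 10000 in Mettl3pKO and 1668 in WT. The part of such cells and of free RNA in the results was not tested.

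Mettl3 itself (chromosome 14, 52294841 to 52305128, minus strand, mm10) stood at 5.58 CPM in Mettl3pKO members (3.97 to 7.63) and 7.83 CPM in WT members (5.24 to 11.2). The ratio was 0.713 (0.430 to 1.196) and rested on 39 and 29 UMIs, and its interval spans 1. The labels do not give the deleted exons, and UMIs from outside them check nothing.

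Between genotypes, 11077 genes had 20 or more UMIs over both libraries of members. Of these, 1486 were at least 1.5-fold higher in Mettl3pKO (13.4%) and 1123 at least 1.5-fold lower (10.1%), with a median log2 ratio of -0.01. "Rose" and "fell" are used below of genes past that 1.5-fold. The counts of genes that rose or fell in each list below are to be read beside these 13.4% and 10.1%. From genes that reached 100 CPM in a library, 12 of the highest and 12 of the lowest ratios are named in what follows, ordered by whichever interval bound lay closer to 1. Each of the 24 kept its direction and stayed past 1.5-fold under all 18 alternatives tried on single genes. The 24 were picked as extremes from these same data, so this says little of other genes. The 12 highest were led by secreted proteins that the liver also makes, and the 12 lowest by trypsinogens.

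**Figure D1:**
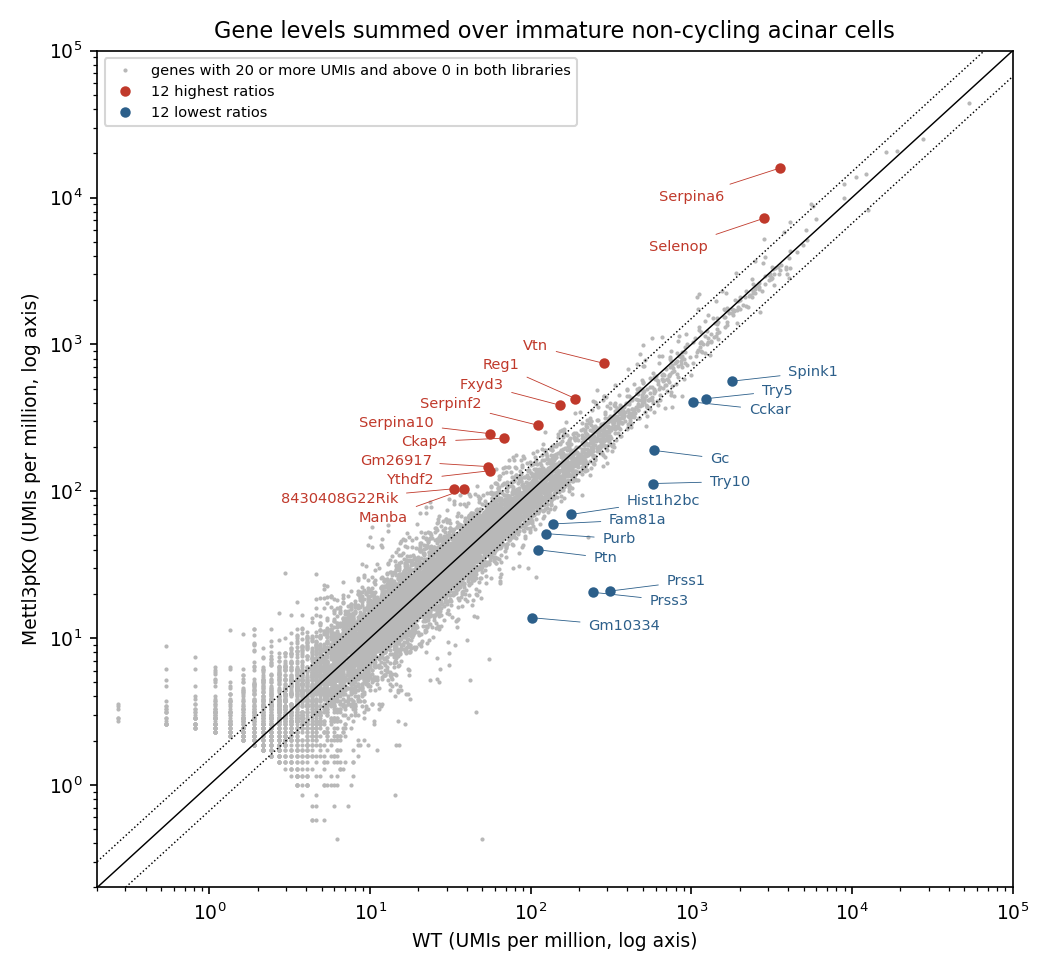
Levels of 11077 genes summed over immature non-cycling acinar cells, in CPM on log axes, Mettl3pKO (vertical) against WT (horizontal), without genes at 0 in a library. The solid line marks equal levels and the dotted lines 1.5-fold. Serpina6 and Selenop stand out among abundant genes above the line, and Prss1 and Prss3 lie furthest below it among the named genes.

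Of 22 serpins and other secreted proteins known from liver that were measured, 12 rose in Mettl3pKO, 3 fell and 7 did neither, beside 13.4% higher and 10.1% lower of all genes, with a median log2 ratio of 0.69. Serpina6 (chromosome 12, 103646630 to 103657212, minus strand), which encodes the corticosteroid-binding globulin, stood at 15923 CPM in Mettl3pKO members and 3582 CPM in WT members, a ratio of 4.45 (4.37 to 4.53). Its median per cell was 139 per 10000 in Mettl3pKO and 12.7 in WT. In WT, 19.5% of its UMIs lay in the 5 cells with the most, against 4.49% in Mettl3pKO. The WT members thus held Serpina6 mostly at a low level with a few rich cells. Without those 5 cells of each library the ratio was 5.22, and in Y-linked cells it was 12.6. After thinning, Serpina6 was found in 98.995% of Mettl3pKO and 91.05% of WT members, against 48.82% and 10.03% of the collagen-rich cells. Its share outside acinar cells was thus also higher in Mettl3pKO. The part of free RNA in the ratio of Serpina6 was not tested. Serpina10, an inhibitor of coagulation factor X that works with protein Z, stood at 246 CPM in Mettl3pKO and 55.9 in WT, a ratio of 4.41 (3.81 to 5.12).

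These serpin genes lie next to each other on chromosome 12. Between Serpina10 and Serpina3n (103614786 to 104414329) the annotation holds 18 genes with counts in both tables, of which 7 reached 20 UMIs, and all 7 rose. Serpina16 stood at 2.00 times WT (1.55 to 2.59). The paralogs of alpha-1-antitrypsin Serpina1a, Serpina1b, Serpina1c and Serpina1e stood at between 1.96 and 4.77 times WT. These 4 are close copies that can share reads, which leaves each of their values uncertain. The other 11 genes of the cluster had at most 11 UMIs in Mettl3pKO and 2 in WT, and 4 of them had none. The bounds of this cluster were chosen after the values were seen.

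Proteins of the same list encoded elsewhere included abundant ones. Itih2, a heavy chain of inter-alpha-trypsin inhibitor, stood at 59.1 CPM in Mettl3pKO and 12.96 in WT, 4.56 times WT (3.38 to 6.29). Selenop, the selenium carrier of plasma, stood at 7243 CPM in Mettl3pKO and 2847 in WT (2.54 times). Vtn, vitronectin, stood at 742 CPM in Mettl3pKO and 287 in WT (2.59 times). Serpinf2, alpha-2-antiplasmin, which is not in the list but among the 12 highest genes, stood at 281 CPM in Mettl3pKO and 111 in WT (2.53 times). The 3 of the list that fell were Gc, vitamin D binding protein, at 189.5 CPM in Mettl3pKO and 586 in WT (0.324 times), Serpini2, a pancreatic serpin, at 0.493 times and Afp, alpha-fetoprotein, at 0.334 times. Of the hepatocyte genes in the list, Apob, Apoh, Fgg and Apoa4 had no UMI in the members of either library, and Alb had 41 in Mettl3pKO and 10 in WT.

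**Figure D2:**
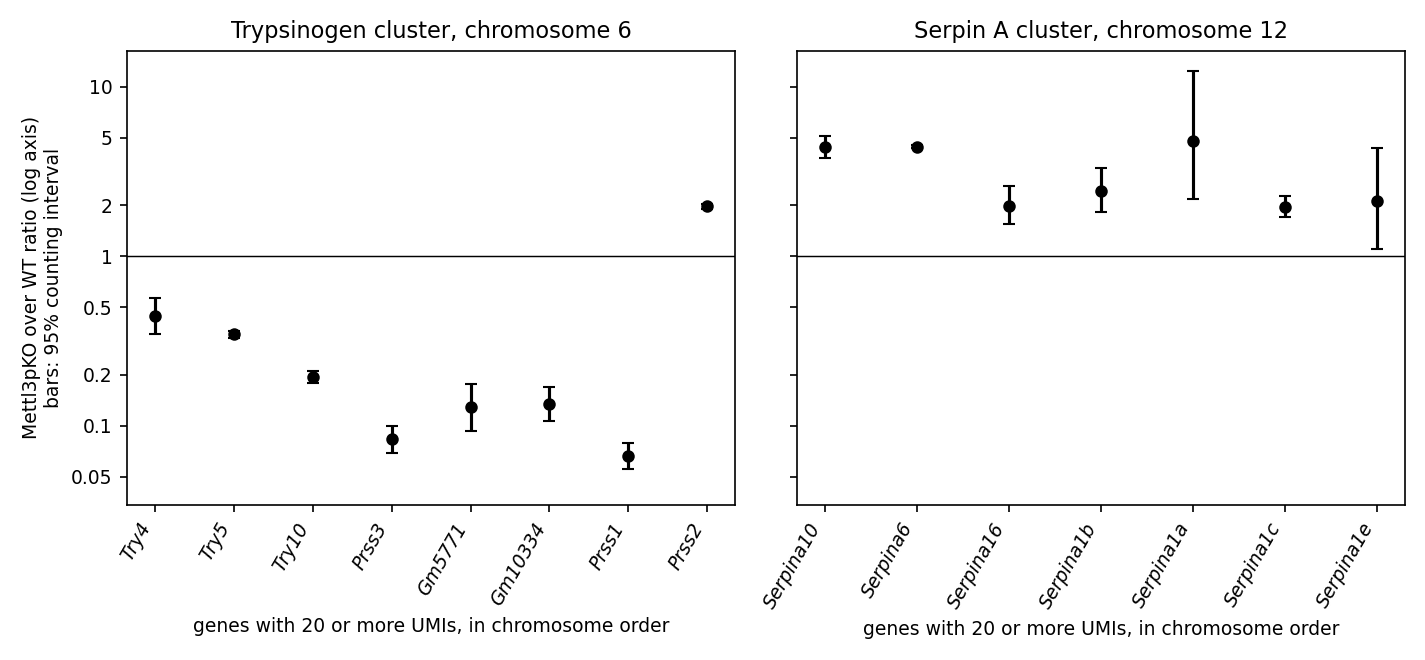
Ratio of Mettl3pKO to WT (log axis) of the genes with 20 or more UMIs in the trypsinogen cluster on chromosome 6 and the serpin A cluster on chromosome 12, in chromosome order, with 95% counting intervals. In the trypsinogen cluster 7 genes lie under 0.5 and Prss2 alone above 1, at 1.98, while all 7 serpins lie at 1.96 or above.

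Trypsinogens, the precursors of trypsin, lie in a row on chromosome 6, and most of that row fell in Mettl3pKO. Between Try4 and Prss2 (41302269 to 41525079) lie 8 trypsinogen genes with counts, of which 7 fell and 1 rose. Prss1 stood at 20.9 CPM in Mettl3pKO members and 313 CPM in WT members, 15.0 times higher in WT (12.6 to 17.9). Prss3 stood at 20.5 CPM in Mettl3pKO and 245 in WT, 11.99 times higher in WT (10.04 to 14.4). Gm5771 was 7.69 times, Gm10334 7.43 times and Try10 5.15 times higher in WT, and Try5 and Try4 2.88 and 2.25 times. Prss2, the last gene of the row, went the other way, at 2195 CPM in Mettl3pKO and 1111 in WT, a ratio of 1.98 (1.91 to 2.04). Outside these bounds 2210010C04Rik, a further trypsin-like gene, did not pass 1.5-fold, at 0.837 times WT (0.733 to 0.957) on 576 and 365 UMIs. Within the rule, members also differed in Cpb1, itself a digestive enzyme, with a median n(Cpb1) of 0.483 in Mettl3pKO and 2.19 in WT. The part of this difference in the ratios of the trypsinogens was not tested. The trypsinogens are near-identical copies whose reads the counting could share, so that the value of each is uncertain. A few cells held much of these sums: the 5 richest cells gave 58.2% of Prss1 UMIs in Mettl3pKO and 20.5% in WT, and without them the ratio of Prss1 was 0.0348 in place of 0.0667.

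The windows around the starts of Prss1, Prss3 and Prss2 are printed because these neighbours moved in opposite directions. Each runs from 250 bases before to 50 bases after the annotated start (RefSeq, GRCm38.p6), and reads 5′ to 3′ on the strand of the gene. Capitals mark CANNTG, the core to which Ptf1a and other factors of its class bind, and TGGGAAA, the core of the Rbpj and Rbpjl sites, both searched on both strands with no overlap between the 2 found.
Prss1, chr6:41458680-41458979, plus strand: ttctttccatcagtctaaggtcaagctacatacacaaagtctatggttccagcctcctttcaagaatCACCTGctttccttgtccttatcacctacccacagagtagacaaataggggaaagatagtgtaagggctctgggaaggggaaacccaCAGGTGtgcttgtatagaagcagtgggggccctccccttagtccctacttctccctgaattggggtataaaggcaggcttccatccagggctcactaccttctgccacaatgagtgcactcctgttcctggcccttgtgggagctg
Prss3, chr6:41377564-41377863, minus strand: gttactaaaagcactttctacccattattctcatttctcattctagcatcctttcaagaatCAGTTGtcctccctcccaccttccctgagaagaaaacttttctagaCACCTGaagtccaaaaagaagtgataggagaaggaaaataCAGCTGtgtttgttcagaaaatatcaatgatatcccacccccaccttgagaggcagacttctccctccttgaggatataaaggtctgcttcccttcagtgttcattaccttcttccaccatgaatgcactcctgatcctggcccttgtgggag
Prss2, chr6:41521526-41521825, plus strand: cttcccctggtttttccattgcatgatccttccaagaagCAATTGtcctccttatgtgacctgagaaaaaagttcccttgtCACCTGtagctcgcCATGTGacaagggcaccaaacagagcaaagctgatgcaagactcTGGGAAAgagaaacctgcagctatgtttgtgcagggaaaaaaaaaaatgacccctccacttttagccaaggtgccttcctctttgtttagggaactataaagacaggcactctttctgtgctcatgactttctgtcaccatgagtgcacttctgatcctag
CANNTG occurs 2 times in the Prss1 window and 3 times in each of the others, and at least once in 72.3% of all 32851 windows of the table. TGGGAAA occurs once in the Prss2 window and in neither of the others, and in 8.06% of all windows. A match is a description of the letters and not a binding site. Aligned in pairs, Prss1 and Prss3 were identical at 61.6% of aligned positions, Prss1 and Prss2 at 55.6%, and Prss3 and Prss2 at 56.8%. The RefSeq table holds windows for 89 of the 123 genes named by the rules of this report, without Serpina6, Serpina10, Spink1, Try5, Try10 and Cckar.

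Proteases outside this row also went both ways. Of 18 proteases measured, the trypsinogens included, 6 rose and 9 fell, with a median log2 ratio of -0.56. Cela2a and Cela3b, both elastases, stood at 730.4 and 5870 CPM in Mettl3pKO against 462 and 3799 in WT, or 1.58 and 1.55 times WT. Cela1, the elastase of another branch, stood at 1657 CPM in Mettl3pKO and 2688 in WT (0.616 times). Ctrl, a chymotrypsin-like protease, stood at 3.43 times WT (2.16 to 5.73) on 136 and 21 UMIs, but at 0.414 times (0.245 to 0.661) in the acinar cells rich in Cpb1. The tissue kallikrein Klk1 stood at 780 CPM in Mettl3pKO and 514 in WT (1.52 times). Cpa1 fell, to 8206 CPM in Mettl3pKO against 12510 in WT (0.656 times, 0.648 to 0.664). Within ranges of n(Ctrb1), given below, Cpa1 did not pass 1.5-fold. Among lipases, amylases and nucleases, 1 of 12 rose and 5 fell (median log2 ratio -0.31), beside 13.4% and 10.1% of all genes. Most of the abundant ones did not pass 1.5-fold: the lipase-related Pnliprp1 stood at 25020 CPM in Mettl3pKO and 27612 in WT, the lipase cofactor Clps at 20405 and 16193, and carboxyl ester lipase Cel at 3675 and 2498 (1.47 times). The ribonuclease Rnase1 fell (0.623 times), as did Amy2a5 (0.497 times), 1 of several near-identical pancreatic amylases, while Amy1 rose (1.62 times).

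Among granule proteins and inhibitors, 5 of 11 rose and 2 fell, beside 13.4% and 10.1% of all genes. Spink1, the trypsin inhibitor that acinar cells pack with their zymogens, fell with the trypsinogens, to 562 CPM in Mettl3pKO against 1795 in WT (0.313 times, 0.301 to 0.326). Its median per cell was 1.75 per 10000 in Mettl3pKO and 15.7 in WT. The part of the difference in n(Cpb1) between members was not tested for Spink1 either. Sycn, a granule membrane protein, fell to 0.597 times WT. Reg1, a secreted lectin, stood at 428 CPM in Mettl3pKO and 189 in WT (2.26 times, 2.08 to 2.46), and Gp2, the main membrane protein of zymogen granules, at 49.1 and 17.5 (2.80 times). Reg3b and Reg3g, relatives of Reg1, had 62 and 74 UMIs in Mettl3pKO, against 2 and 6 in WT, and 91.9% of the Reg3b UMIs in Mettl3pKO lay in 5 cells. Reg3d, from the same cluster on chromosome 6 (78370657 to 78428667), fell to 0.474 times WT. Cckar, the receptor through which cholecystokinin triggers secretion, fell to 405 CPM in Mettl3pKO against 1019 in WT (0.397 times, 0.379 to 0.417).

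Of 13 transcription factors of the acinar programme, 2 rose, 1 fell and 10 did neither, shares near the 13.4% and 10.1% of all genes. Ptf1a (chromosome 2, 19445663 to 19447501, plus strand) stood at 304 CPM in Mettl3pKO and 223 in WT, a ratio of 1.36 (1.26 to 1.48). Rbpjl fell to 845 CPM in Mettl3pKO against 1314 in WT (0.644 times, 0.619 to 0.669). Within ranges of n(Ctrb1), given below, Rbpjl did not pass 1.5-fold. Bhlha15 stood at 269 CPM in Mettl3pKO and 249 in WT (1.08 times, 0.999 to 1.17), and Nr5a2 and Gata4, which acinar cells need, at 0.995 and 1.01 times. The 2 that rose were Foxa3 (1.62 times) and Hnf4a (1.54 times), factors shared with liver.

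Factors of multipotent and trunk progenitors had 4 of 17 members higher and 1 lower, beside 13.4% and 10.1% of all genes. Their median log2 ratio was 0.21. Hes1, a repressor switched on by Notch, was the abundant one, at 1127 CPM in Mettl3pKO and 657 in WT (1.72 times, 1.64 to 1.796). Onecut2, Sox11 and Nr2f2 rose at 5.83, 4.32 and 2.94 times, from low levels of at most 10.3 CPM. They had 33, 57 and 72 UMIs in Mettl3pKO, against 3, 7 and 13 in WT. After thinning, Sox11 was found in 3.52% of Mettl3pKO and 1.95% of WT members, against 42.1% and 29.6% of the collagen-rich cells. Onecut2 was found in 2.01% and 0.389% of members, against 4.71% and 0.470%. The part of other cells and of free RNA in these ratios was not tested. Glis3 fell to 0.566 times. Sox9, which marks the trunk and early tips, stood at 373 CPM in Mettl3pKO and 262 in WT (1.42 times), under the threshold. Duct genes had 1 of 16 higher, the mucin Muc1 at 1.75 times, and 3 lower, among them Spp1 at 0.479 times. Without the 5% of cells with the highest doublet scores, which took out 2 Mettl3pKO and 15 WT members, Spp1 stood at 1.02 times.

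Of 37 genes of protein secretion, most of them of the endoplasmic reticulum, 1 rose, 3 fell and 33 did neither, and the median log2 ratio was -0.23. Sel1l, which hands misfolded proteins to the proteasome, rose to 1101 CPM in Mettl3pKO against 568 in WT (1.94 times, 1.85 to 2.03). Pdia2, the disulfide isomerase of acinar cells, fell to 0.406 times. The chaperone Hspa5 stood at 3928 CPM in Mettl3pKO and 2894 in WT (1.36 times). Ckap4, a membrane protein that shapes the reticulum and the third of the 12 highest genes by its ratio, stood at 230 CPM in Mettl3pKO and 67.8 in WT (3.39 times, 2.97 to 3.89). Stress regulators had 4 of 24 higher and 2 lower, shares near the 13.4% and 10.1% of all genes. Among them Sesn2 stood at 2.15 times and Ddit3 at 0.553 times.

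Of 26 targets of p53, the factor that stops the cycle after DNA damage, 17 rose and 1 fell beside 13.4% higher and 10.1% lower of all genes, with a median log2 ratio of 0.87. Cdkn1a (chromosome 17, 29090976 to 29100727, plus strand), the cycle inhibitor p21, stood at 440 CPM in Mettl3pKO and 196 in WT (2.24 times, 2.07 to 2.43). Phlda3, an inhibitor of Akt, stood at 22.8 CPM in Mettl3pKO and 5.40 in WT (4.22 times), and the cytokine Gdf15 at 15.9 and 5.13 CPM (3.10 times). In Xist cells Gdf15 stood at 0.639 times. Mdm2, which degrades p53, stood at 83.0 CPM in Mettl3pKO and 40.5 in WT (2.05 times), and the death gene Bax at 163 and 86.4 CPM (1.89 times). Trp53, the p53 gene itself, fell to 40.1 CPM in Mettl3pKO against 61.5 in WT (0.651 times). Cycle inhibitors and quiescence genes, which share Cdkn1a and Btg2 with other lists, had 4 of 11 higher and none lower, among them Cdkn1c at 407 CPM in Mettl3pKO and 249.96 in WT (1.63 times). Of 37 S-phase genes 2 rose and 1 fell, and the median log2 ratio was 0.02.

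**Figure D3:**
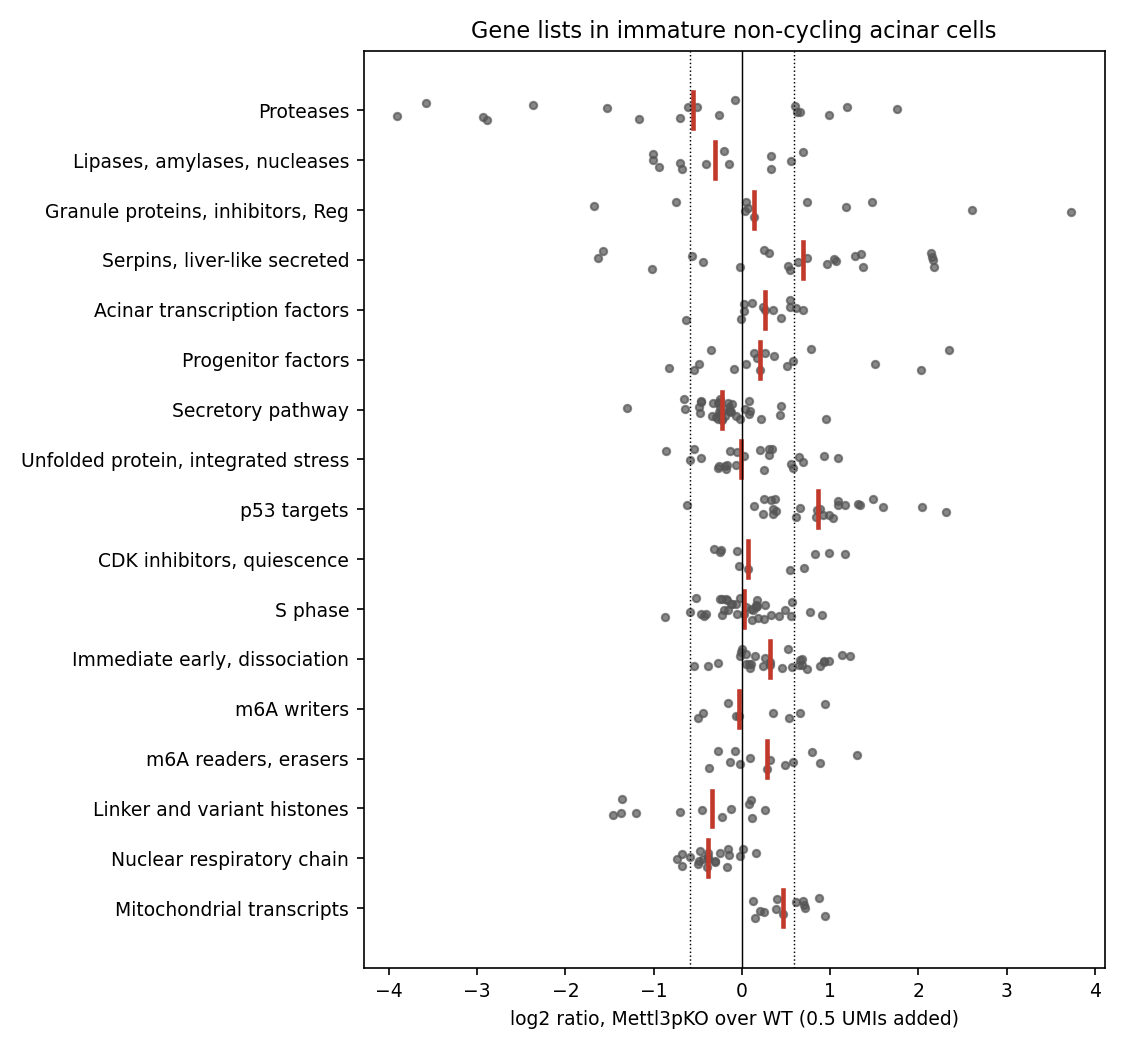
Log2 ratio of Mettl3pKO to WT (0.5 UMIs added) for each gene with 20 or more UMIs in 17 lists, in immature non-cycling acinar cells. Each point is a gene, the red tick is the median of the list and dotted lines mark 1.5-fold. The p53 targets and the serpin list have the highest medians, 0.87 and 0.69, and the proteases spread between -3.90 and 1.75.

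Immediate early genes, which tissue dissociation can switch on, moved with genotype too: 11 of 30 rose and none fell. Over all genes 13.4% rose and 10.1% fell. The median log2 ratio of the immediate early genes was 0.32, with Klf6 at 2.203 times and Zfp36 at 1.90 times WT. Their sum had a median per cell of 124 per 10000 in Mettl3pKO and 89.3 in WT. Mitochondrial transcripts had 6 of 13 higher and none lower, with mt-Nd4l at 1.93 times. Genes of the respiratory chain in the nucleus had none of 21 higher and 4 lower (median log2 ratio -0.38), with Atp5g1 at 452 CPM in Mettl3pKO and 751 in WT (0.602 times). The part of dissociation and RNA quality in the p53 and other results was not tested. Among members with at most 10% mitochondrial UMIs (183 in Mettl3pKO and 212 in WT) all 24 named genes kept their direction past 1.5-fold. These 24 were picked as extremes and hold none of the p53 targets. In the wider set of named genes, 81 ratios stayed within their interval over all members and 41 left it.

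Of 9 writer subunits of the m6A system 2 rose and none fell, beside 13.4% and 10.1% of all genes: Rbm15, which recruits the complex to RNA, stood at 1.92 times WT (1.45 to 2.59) and Wtap, its scaffold, at 1.58 times. Mettl14, the partner of Mettl3, stood at 9.16 CPM in Mettl3pKO and 12.4 in WT (0.738 times, 0.497 to 1.10). Of 13 readers and erasers 3 rose and none fell. Ythdf2 (chromosome 4, 132184912 to 132212303, minus strand) stood at 138 CPM in Mettl3pKO and 55.6 in WT (2.48 times, 2.13 to 2.90). It was found in 56.3% of thinned Mettl3pKO members (51.3 to 61.2) and 27.6% of WT members (22.2 to 33.5), against 33.5% and 29.0% of the collagen-rich cells, but Ythdf2 is broadly expressed and those cells are no blank for it. Without thinning the shares of members were 82.7% in Mettl3pKO and 48.6% in WT. The erasers Fto and Alkbh5 stood at 1.07 and 0.986 times.

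The signalling lists are set beside 13.4% higher and 10.1% lower of all genes. The counts of the FGF and ERK, Wnt and Hippo lists lay near or under these shares. In the Notch list 3 of 14 rose and none fell: the ligand Dll1 (2.24 times), the receptor Notch3 (1.92 times, on 47 and 13 UMIs) and the target Hes1. In the FGF and ERK list 3 of 17 rose, among them the receptor Fgfr1 at 95.3 CPM in Mettl3pKO and 41.3 in WT (2.31 times) and the feedback inhibitor Spry1 (2.04 times). Fgfr2, the receptor for the mesenchymal FGF10, fell to 0.632 times (0.430 to 0.932) and Fgfr4 to 0.424 times. In the Wnt list Lgr4, an R-spondin receptor, rose (1.62 times) while its relative Lgr5 (0.554 times) and Tcf7 (0.398 times) fell, out of 16. In the Hippo list 1 of 15 fell, Wwtr1, and none rose.

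Outside these lists, the 12 highest genes also held Fxyd3, a regulator of the sodium pump, at 386 CPM in Mettl3pKO and 151 in WT (2.55 times), and Manba, the lysosomal beta-mannosidase (2.67 times). Also among them were 8430408G22Rik (3.10 times), with 42.7% of its WT UMIs in 5 cells, and Gm26917 (2.73 times), with 56.1% of its Mettl3pKO UMIs in 5 cells. The 12 lowest also held the growth factor Ptn (0.362 times), the histone gene Hist1h2bc (0.391 times), the nucleic acid binding Purb (0.411 times) and Fam81a (0.435 times).

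Members varied widely among themselves, and the cells of both genotypes overlapped in each of the 8 genes plotted by cell. Cpa1 spread widely in Mettl3pKO, where its quartiles were 9.79 and 145 per 10000 with a median of 22.6, against 46.8 and 188 with a median of 122 in WT. Serpina6 had quartiles of 59.3 and 238 in Mettl3pKO, against 5.47 and 32.3 in WT, so that the lower quartile in Mettl3pKO lay above the upper quartile in WT. Cdkn1a was found in 80.4% of thinned Mettl3pKO members and 51.8% of WT members, against 16.5% and 6.27% of the collagen-rich cells. Prss1 was found in 6.03% of thinned Mettl3pKO members and 41.2% of WT members, against 0.588% and 2.90%. Spink1 was found in 64.8% of thinned Mettl3pKO members and 88.7% of WT members, against 12.9% and 20.4%. Without thinning, members with a UMI were 92.5% in Mettl3pKO and 68.1% in WT for Cdkn1a, 10.6% and 51.0% for Prss1, and 80.2% and 94.2% for Spink1.

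**Figure D4:**
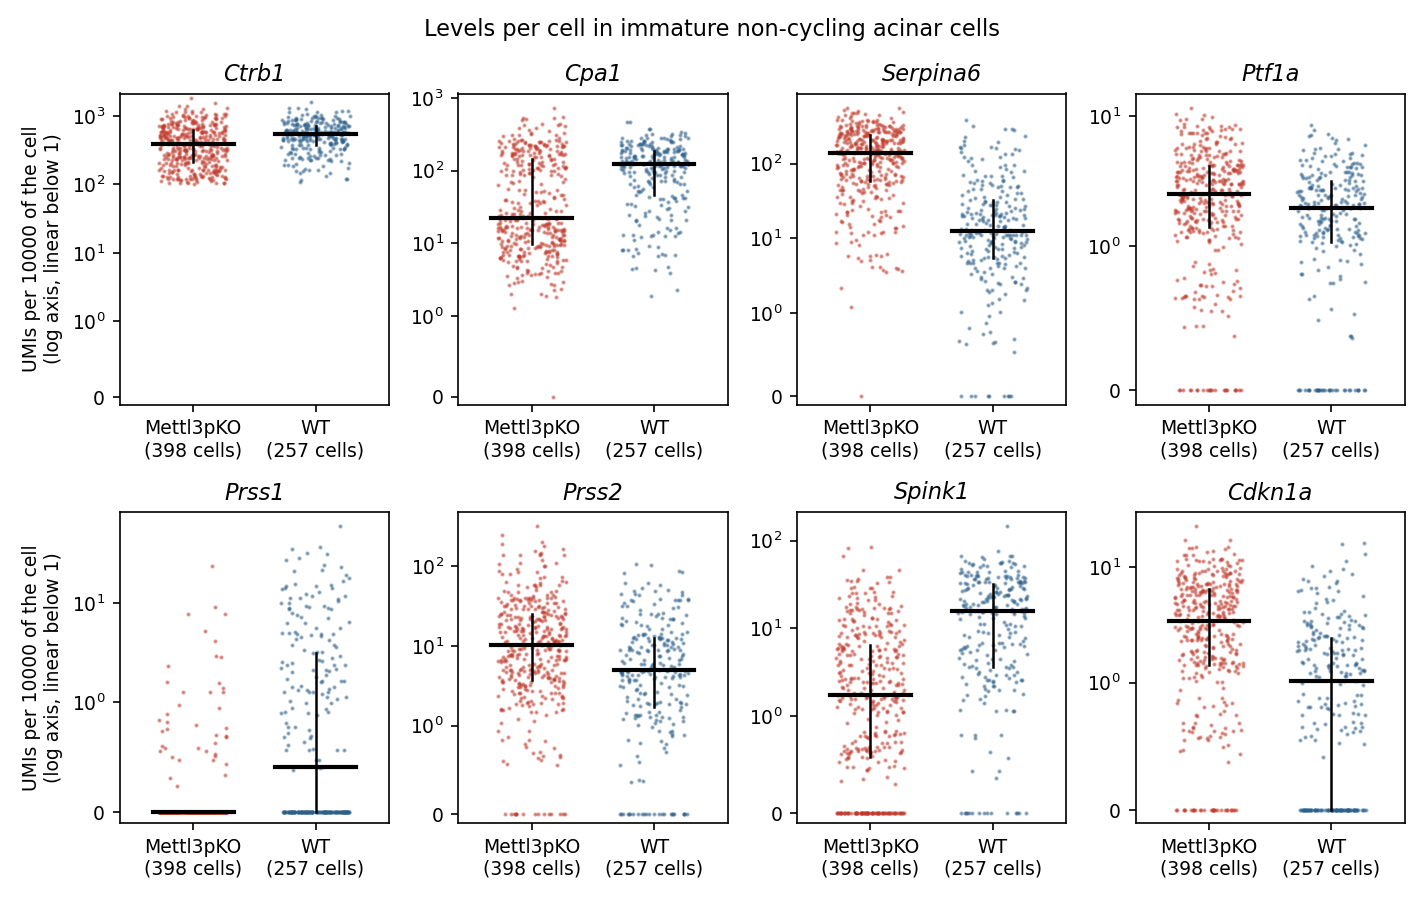
Level of 8 genes in each immature non-cycling acinar cell, in UMIs per 10000 of the cell on an axis that is logarithmic above 1, for 398 Mettl3pKO and 257 WT cells. Points are cells, thick lines medians and thin lines quartiles. Serpina6 has medians of 139 in Mettl3pKO and 12.7 in WT, and Spink1 of 1.75 and 15.7, with wide overlap between the cells of both.

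More Mettl3pKO members were low in Ctrb1, so the ratios were taken within ranges of n(Ctrb1). The rule itself used n(Ctrb1), so the values by range are descriptions. The range of 100 to 200 held 91 Mettl3pKO and 18 WT members, that of 200 to 400 held 117 and 52, and that of 400 and over 190 and 187. Serpina6 stood at 2.98, 4.68 and 4.76 times WT in these ranges, from low to high. Prss2 stood at 3.20, 2.54 and 2.39 times, and Selenop at 2.70, 2.27 and 2.47 times. Spink1 stood at 0.626, 0.428 and 0.391 times WT, and Cckar at 0.343, 0.433 and 0.444 times. Prss1 was at 0.109 and 0.0858 times in the upper ranges, and in the lowest it had 6 UMIs in Mettl3pKO and 2 in WT. Within each genotype Prss1 was higher in cells richer in Ctrb1: 3.81, 10.4 and 35.8 CPM in Mettl3pKO and 7.07, 95.2 and 418 CPM in WT. Cdkn1a was uneven, at 2.36, 1.15 and 2.94 times. Cpa1 stood at 0.934, 0.742 and 0.721 times WT and Rbpjl at 0.840, 0.692 and 0.670 times. Both passed 1.5-fold over all members but in no single range.

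Across single members, the genes whose levels were most like that of Serpina6 included other secreted proteins. The measure was Spearman's rho over cells thinned to 6718 UMIs, within each library, for 3262 genes found in at least 20% of members of both. Cells of a library share its free RNA and its preparation, so that these values are descriptions. Vtn came first, with a rho of 0.40 over 398 Mettl3pKO members and 0.35 over 257 WT members. Selenop (0.35 and 0.29), Hspa5 (0.27 and 0.33), Serpinf2 (0.24 and 0.26) and Fxyd3 (0.22 and 0.38) followed. At the other end, looked up after the values were seen, Try10 ran against Serpina6, at -0.32 in Mettl3pKO and -0.22 in WT. For Ctrb1 the most similar genes were Pnliprp1 (0.62 and 0.68), Clps (0.58 and 0.69), Cela3b (0.50 and 0.59), Fkbp11 (0.49 and 0.48) and Spink1 (0.45 and 0.58). The rule had cut n(Ctrb1) off below, which bears on the values for Ctrb1.

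Set beside cycling acinar cells that fail the rule only on the cycling sum (1121 in Mettl3pKO and 593 in WT), members held more of several digestive enzymes in both libraries. Of 11517 genes, 229 were at least 1.5-fold higher in members in both libraries (1.99%) and 769 at least 1.5-fold lower in both (6.68%). Past 1.5-fold in opposite directions in the libraries were 60 (0.521%). Proteases had 10 of 18 higher and none lower. Cela2a stood at 3.23 times the cycling cells in Mettl3pKO and 3.07 times in WT, Try5 at 2.69 times in each, the granule protein Zg16 at 2.83 and 2.23 times, and Cel at 2.18 and 2.05 times. The water channel Aqp8 was also among the 8 highest, at 2.05 times in Mettl3pKO and 1.95 times in WT. None of 13 acinar transcription factors passed 1.5-fold in either direction in both libraries, and Ptf1a stood at 0.919 times in Mettl3pKO and 0.895 times in WT. Among the lower genes were those of division, as the rule has it: 36 of 36 G2M genes outside the rule, 28 of 39 S-phase genes and 11 of 13 histone genes. Members still held some S-phase transcripts, and Pcna was found in 33.9% of thinned Mettl3pKO members and 33.1% of WT members, against 63.2% and 48.7% of collagen-rich cells, which were taken at any cycling sum. Of genes of other cells, 8 of 8 erythroid and 4 of 9 immune genes were lower.

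Set beside acinar cells rich in Cpb1 (141 in Mettl3pKO and 1046 in WT), members held more of some serpins and less of most trypsinogens and amylases. Of 10842 genes, 413 were higher in members in both libraries (3.81%) and 343 lower in both (3.16%). Serpina10 stood at 2.84 times the Cpb1-rich cells in Mettl3pKO and 2.98 times in WT, and Serpina6 at 1.82 and 2.09 times. Acot1, an acyl-CoA thioesterase, stood at 1.95 times in Mettl3pKO and 2.71 times in WT, and the cyclin Ccnd1 at 1.69 and 2.08 times. Proteases had none of 18 higher and 8 lower, namely 7 genes of the trypsinogen cluster and 2210010C04Rik, and lipases, amylases and nucleases had 5 of 12 lower, namely 4 pancreatic amylases and Rnase1. Spink1 stood at 0.315 times in Mettl3pKO and 0.477 times in WT. No acinar transcription factor of 13 passed 1.5-fold in both libraries. Sox9 stood at 1.48 times in each. Past 1.5-fold in opposite directions were 118 genes (1.09%), among them Ctrl, at 2.67 times in Mettl3pKO and 0.322 times in WT. Cpb1-rich cells were taken at any cycling sum, and part of the lower genes were again those of division (35 of 36 G2M genes). The sets are split on Cpb1, itself a digestive enzyme, so lower levels of other enzymes and of Spink1 in members may follow from the rule.

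**Figure D5:**
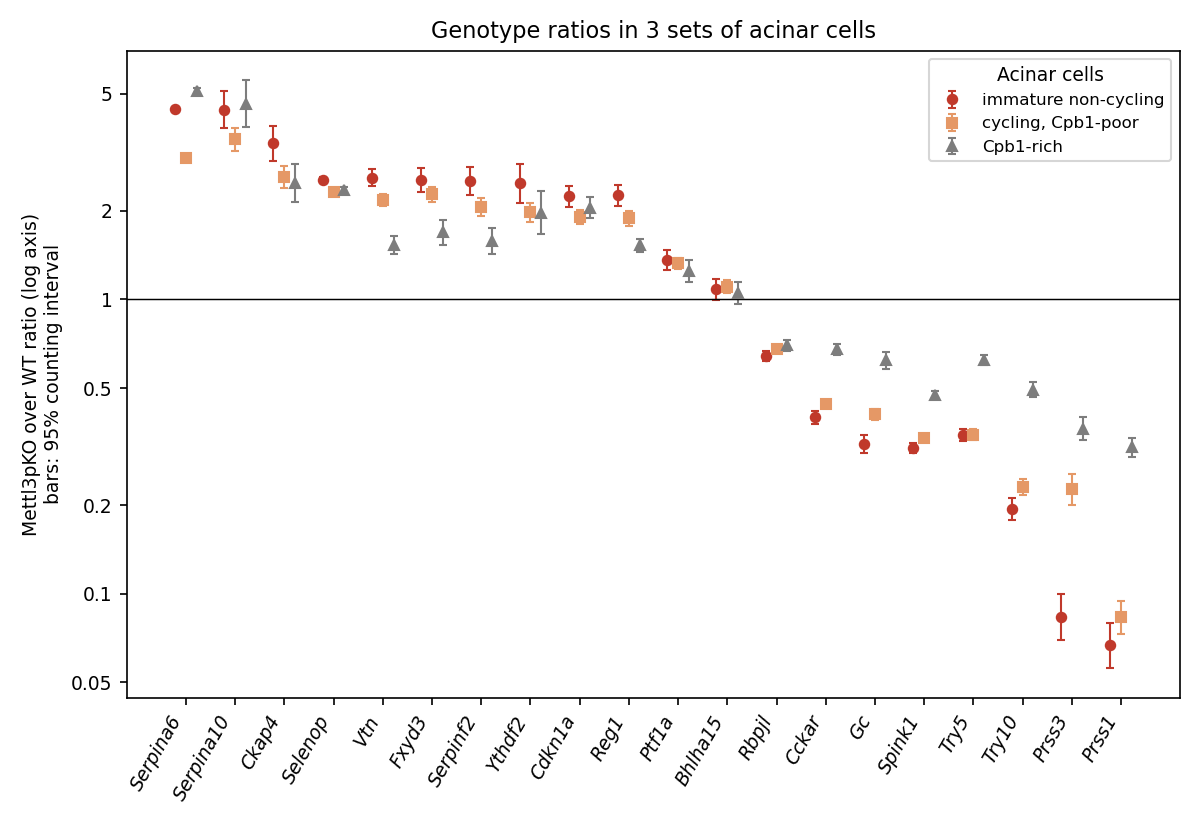
Ratio of Mettl3pKO to WT (log axis) with 95% counting intervals of 20 genes in immature non-cycling acinar cells (red), cycling acinar cells poor in Cpb1 (orange) and acinar cells rich in Cpb1 (grey). Each gene lies on the same side of 1 in the 3 sets. Prss1 stands at 0.0667, 0.0833 and 0.315, and Vtn at 2.59, 2.18 and 1.53.

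The genotype ratio of most named genes was of the same direction in the other acinar sets, which come from the same libraries and so are no replicates. Serpina6 stood at 4.45 times WT in members, 3.02 times in cycling cells and 5.12 times in Cpb1-rich cells. The 4 trypsinogens plotted had ratios nearer 1 in Cpb1-rich cells than in members. Prss3 stood at 0.0834 times WT in members, 0.226 times in cycling cells and 0.364 times in Cpb1-rich cells, and Gc at 0.324, 0.407 and 0.621 times. Whether these ratios differ between the sets beyond the spread of libraries was not tested, since that spread cannot be had from 1 library per genotype.

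Many endocrine genes had lower sums over Mettl3pKO members, and a few cells carried much of these sums. Of 12 genes of endocrine progenitors 8 fell and 1 rose, and of 13 hormones and granule proteins 10 fell, with Gcg, Ins1 and Ins2 bounded by the rule. Per cell, the summed endocrine progenitor genes had a median of 1.77 per 10000 in Mettl3pKO members (quartiles 0.665 and 3.57) and 1.22 in WT members (0.585 and 2.46), so the median did not follow the sums. Neurog3, which starts the endocrine programme, had 3 UMIs in Mettl3pKO members and 183 in WT members, and 96.2% of the WT UMIs lay in 5 cells. After thinning it was found in 0.503% of Mettl3pKO members and 4.28% of WT members, against 0.588% and 2.04% of the collagen-rich cells. Without the 3 Mettl3pKO and 6 WT members that held 5 or more UMIs over Neurog3, Chga, Chgb, Neurod1 and Fev, an alternative chosen after the data were seen, all 24 named genes kept their direction past 1.5-fold. Chgb, a granin, stood at 0.122 times WT in all members and at 1.28 times without the 5% of cells with the highest doublet scores, again 2 Mettl3pKO and 15 WT members fewer.

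The sex of the cells moved with genotype, so the ratios were taken within each kind. Among the 231 Mettl3pKO and 33 WT Y-linked cells, Serpina6 stood at 12.6 times WT, Prss1 at 0.0264 times and Spink1 at 0.279 times. Among the 68 Mettl3pKO and 176 WT Xist cells they stood at 3.13, 0.0770 and 0.361 times. All 24 named genes, picked as extremes, lay past 1.5-fold in the same direction in both kinds. In the wider set of named genes, 35 ratios of Y-linked cells stayed within their interval over all members, 73 left it and 4 reversed. In Xist cells 78 stayed, 43 left it and 1 reversed. Cdkn1a stood at 1.90 times in the first kind and 2.37 times in the second. Embryo, litter and library preparation cannot be told apart from genotype.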

How the data were processed

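Each library was deposited as a table of UMI counts per cell and gene, made with the BD WTA Rhapsody Analysis Pipeline version 1.8, per the file headers. Seurat and the build mm10 are named in the submitters' processing notes, with no role given. The last row of each table was incomplete and was dropped, and genes present in only 1 table were left out (114 UMIs of Mettl3pKO and 53 of WT members). The libraries held 65779771 UMIs in Mettl3pKO and 80011421 in WT, with medians of 16481 and 10824 per cell. Free RNA was not corrected here, and the labels name no such step.

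Python 3.11.15 was used with numpy 2.4.6, scipy 1.17.1, pandas 2.3.3 and matplotlib 3.10.9. UMIs were summed over members of a library and divided by their total (CPM). Ratios have exact conditional binomial intervals, levels exact Poisson intervals and shares Clopper-Pearson intervals. The ratio intervals and the 1.5-fold calls were run on simulated sums with known folds and Poisson counting error. Those sums held no spread between cells, so the run does not check the intervals against such spread. Doublet scores came from Scrublet in scanpy 1.11.5, and no doublet was removed except in an alternative. Ratios were taken for genes with 20 or more UMIs, and the log2 scale has 0.5 UMIs added.

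Genes were named as the given markers, the 12 highest and 12 lowest between genotypes, the members of each of 34 lists farthest from 1, and the 8 highest and 8 lowest against each other acinar set. Further members of the lists and of the clusters were named after their values were seen. The rule left out its own genes and mitochondrial, ribosomal, globin, sex-linked and hormone genes. The cells and lists were chosen with earlier results of these data known. There were 21 alternatives, 3 of them chosen after seeing the data. They changed the cell filters, the rule, the depth, the sex of cells, the scaling, the UMI minimum and the fold. Results of some genes are not reported here.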

Additional observations from a re-analysis of the deposited data

Results flagged for a closer look

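Of 516 listed or named genes with 20 or more UMIs, 13 had a ratio of Mettl3pKO to WT past 1.5-fold in opposite directions in immature non-cycling acinar cells and in another acinar set of the same libraries. The difference between sets was not tested. Against Cpb1-rich cells, Ctrl stood at 3.43 in members and 0.414 in Cpb1-rich cells, Fev at 2.598 and 0.0651, and Col6a1 at 1.57 and 0.658. In the other direction, Ddit3 stood at 0.553 in members and 1.53 in Cpb1-rich cells, Fgfr4 at 0.424 and 1.56, Fgfr2 at 0.632 and 1.70, Wwtr1 at 0.651 and 2.17, Ccne2 at 0.546 and 2.23, Glis3 at 0.566 and 1.57, Gadd45a at 0.504 and 1.87, and Postn at 0.499 and 1.67. Against cycling cells poor in Cpb1, Phlda2 stood at 2.12 in members and 0.515 in cycling cells, Fev at 2.598 and 0.576, Ifi27 at 0.367 and 1.59, and Postn at 0.499 and 1.79. The UMIs of these genes in members ran from 9, for Ifi27, to 136, for Ctrl, in Mettl3pKO, and from 10, for Fev and Phlda2, to 82, for Gadd45a, in WT.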

How the results depend on the processing

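The 24 highest and lowest genes lay past 1.5-fold in the same direction under all 18 alternatives run on single genes. They were picked as extremes from the same data, so this says little of other genes. The share of members among all cells, 2.73 times higher in Mettl3pKO, was 1.87 times with cells over a common depth floor, 1.97 with cells thinned to it, 2.17 with n(Cpb1) under 20, 2.26 with n(Ctrb1) of 200 or more, 1.79 with 400 or more, 6.07 in cells with a Y-linked UMI and no Xist, and 1.98 in cells with Xist alone. Among Ctrb1-rich cells the ratio of 1.77 was 1.40 with n(Cpb1) under 20, 1.37 in cells with a Y-linked UMI alone and 2.23 with n(Ctrb1) of 400 or more. In cells with a Y-linked UMI alone, Mettl3 stood at 1.24 times and 1728 genes were lower. With 1 UMI as minimum 3837 genes were higher and 3462 lower, and at 2-fold 593 and 394. Against cycling cells, the 229 genes higher in members were 54 in cells with a Y-linked UMI alone, 116 with 50 UMIs as minimum, 890 with 1 UMI, 36 at 2-fold and 120 with n(Ctrb1) of 400 or more, and the 769 lower were 426, 1206 with 1 UMI and 412 at 2-fold. Against Cpb1-rich cells, the 413 higher were 270.0 with at most 10% mitochondrial UMIs, 170.0 and 203 in cells with a Y-linked UMI or Xist alone, 267 with 50 UMIs, 898 with 1 UMI, 48 at 2-fold and 252 with n(Ctrb1) of 400 or more, and the 343 lower were 152 and 138 by sex, 814 with 1 UMI and 209 at 2-fold. Directions turned in genes of few UMIs or few cells, and the cause was not tested. Without the highest doublet scores (2 Mettl3pKO and 15 WT members fewer) Spp1 stood at 1.02, Chgb at 1.28 and Postn at 1.06 times. Fcer1g stood at 0.698 with n(Cpb1) under 20, and Pdgfra at 0.822 with a cycling sum under 1 and 0.970 by the mean of per-cell shares. In cells with a Y-linked UMI alone Spry4 stood at 0.812, Ccne2 at 1.95, Ghrl at 1.30 and Lyz2 at 0.216, and with Xist alone Gdf15 at 0.639. With n(Ctrb1) of 400 or more Ifi27 stood at 1.96, Postn at 1.23 and Pdgfra at 0.980, and without the 5 richest cells per gene Postn at 1.93 and Lyz2 at 0.842. The alternatives without the richest cells, without endocrine UMIs and with n(Ctrb1) of 400 or more were chosen after seeing the data. No paired analysis was possible because there was 1 library per genotype, and for the same reason no replicate could be left out. Depth limits genes of few UMIs, Mettl3 among them.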

Other observations

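Some gene groups were measured that belong to none of the comparisons above. Their counts are set beside 13.4% higher and 10.1% lower of all genes. Linker and other histone genes had none of 12 higher in Mettl3pKO members and 5 lower (median log2 ratio -0.34), with Hist1h1c, a linker histone, at 23.6 CPM in Mettl3pKO and 64.8 in WT (0.365 times). Imprinted growth genes had 2 of 16 higher and 1 lower, near or under the shares of all genes. The non-coding Meg3 stood at 278 CPM in Mettl3pKO and 524 in WT (0.531 times), and Phlda2 had 40 UMIs in Mettl3pKO and 10 in WT. Claudins and adhesion genes had 1 of 20 higher and 2 lower, the higher one being the tight junction protein Cldn3, at 245 CPM in Mettl3pKO and 149 in WT (1.65 times). Interferon-related genes had 1 of 13 higher, Ifitm1 (2.26 times), and 2 lower, Ifi27 (0.367 times) and Psmb9 (0.326 times), on at most 13 UMIs in either library for Ifi27 and for Psmb9.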
